A study of Mus musculus with 4 samples.

Results

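The genes described here are 38 genes of motile cilia, chosen by name for their known part in the multiciliated cells of the airway. No measured value enters the choice of genes, though the brightest probe set stands for a gene that has several. The list was drawn up with earlier results of these data known. All 38 were measured, out of 19938 genes in all, and 36 of them passed a filter that leaves out the dimmest 40 percent of genes. Total RNA of embryonic lung at E18.5, the saccular stage just before birth, was hybridized to Affymetrix arrays. The arrays covered 2 C57BL/6 wild-type lungs (WT, *Hmga2*+/+) and 2 lungs of C57BL/6 *Hmga2* knockout embryos (KO, *Hmga2*−/−), with 1 array per sample and no treatment. The samples are labelled as biological replicates, and both WT titles carry the same group name, so that they come from separate embryos rests on that label. HMGA2 is a chromatin-associated protein of the developing lung, and its loss was made to ask what it does there. No driver that would confine the deletion to 1 tissue is named for these embryos, and the authors place the loss soon after fertilization.

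Motile cilia cover the multiciliated cells of the trachea and bronchi and beat to carry mucus out of the lung. Each one is built around the axoneme, a ring of doublet microtubules with a central pair, on which dynein arms make the doublets slide while radial spokes and nexin links keep the beat regular. Airway cells become multiciliated late in gestation: MCIDAS and CCNO drive the amplification of centrioles into basal bodies, and FOXJ1 with the RFX factors turns on the axonemal genes. Whole lung holds all of its cell types, so fewer ciliated cells and less RNA of these genes per cell cannot be told apart here. The values are log2 signals without a call of signal over background, and signals of different genes are not compared because probes differ in brightness.

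The *Hmga2* probe set itself read 9.35 and 9.59 (log2) on the WT arrays and 9.65 and 9.39 on those labelled KO. These groups overlapped. No source used here says if its probes lie in the deleted part, so it does not check the labels, and every direction follows them as given. WT replicate 1 differed most from the rest. Over all genes its log2 values had a Pearson's *r* of 0.9873 with WT replicate 2 and of 0.9753 and 0.9765 with the KO arrays, whereas WT replicate 2 had 0.9917 and 0.9907 with the KO arrays, and the KO arrays had 0.9977 with each other. Array medians were 8.19 in WT replicate 1 and KO replicate 2, and 8.34 in WT replicate 2 and KO replicate 1. The medians of the gene lists are therefore also given against each WT array alone, and so are single genes that depend on it most.

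To see how the cilia genes as a group stood in the KO lung, each gene was fitted with limma across all 19938 genes. The mean was lower in KO for 29 of the 38 genes and higher for 9, with a median log2 difference (KO minus WT) of −0.21, against −0.05 over all genes. Both KO arrays lay below both WT arrays for 19 genes (50.0%), an order that 31.8% of all genes had. Both KO arrays lay above both WT arrays for 2 genes, *Mcidas* and *Tubb4a* (5.26%), against 17.6% of all genes, and the groups overlapped for the other 17. By role, the median difference was lowest for 4 genes grouped as other ciliated cell genes (−0.81) and for the dynein arms (−0.65). It was 0.05 for the 5 transcriptional regulators. After Benjamini-Hochberg adjustment over all genes, limma called 1 cilia gene lower (*Sec14l3*), where 0.702% of all genes were called lower. It called 0 higher, where 0.0802% of all genes were called higher. At an unadjusted p under 0.05 limma gave 14 lower (36.8%) against 8.58% of all genes, and 1 higher (2.63%) against 5.88%.

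The 2 WT arrays differed from each other about as much as the genotypes did. The median gap between the WT arrays was 0.346 on the log2 scale in size, against 0.337 for the difference between genotypes and 0.163 for the gap between the KO arrays. Only 15 genes had a difference between genotypes larger than their gap between WT arrays. The gap is between single arrays and the difference is between means of 2, so their sizes are not on an equal footing. The KO mean lay below WT replicate 2 for 34 of 38 genes, with a median difference of −0.27, and below WT replicate 1 for 24, with a median difference of −0.14. Without WT replicate 1 limma called 10 of the genes lower and 1 higher, among 1638 genes in all. Without WT replicate 2 it called 14 lower and 6 higher, among 6292 genes in all. In these fits the lone WT array is assumed to vary like the KO pair, so their calls hold no variation between WT lungs. Without KO replicate 1 the median difference of the cilia genes was −0.34, against −0.09 over all genes. Without KO replicate 2 it was −0.10, against −0.0055 over all genes. With 2 arrays against 2 an exact two-sided permutation test of a single gene cannot give a p below 0.333. KO replicate 1 was above KO replicate 2 for 37 of the 38 genes, by a median of 0.16, and by a median of 0.10 over all genes. The array median over all genes was also higher in KO replicate 1 (8.34) than in KO replicate 2 (8.19).

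**Figure D1:**
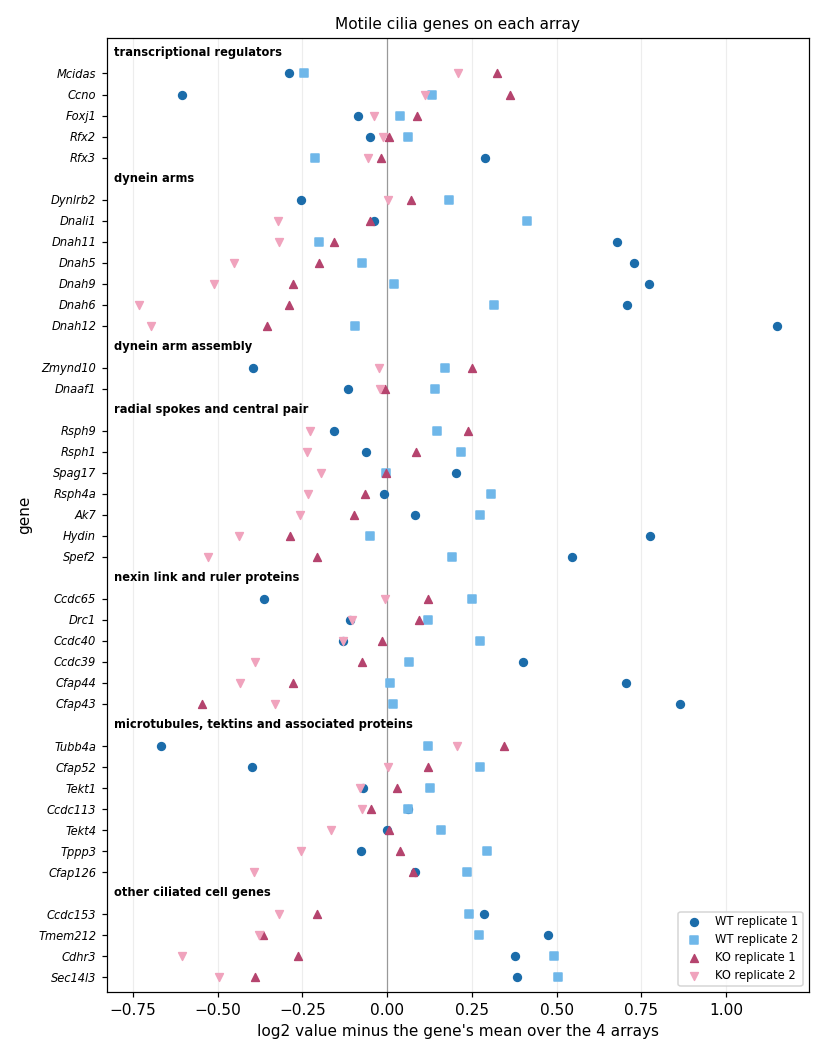
The 38 motile cilia genes by role, as log2 values on each of the 4 arrays after subtracting that gene's average. Blue symbols are WT and red symbols KO. WT replicate 1 lies far to the right for the dynein heavy chains and far to the left for *Ccno* and *Tubb4a*, and both KO arrays lie to the left of both WT arrays in all 4 genes of the bottom group.

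The 5 transcriptional regulators did not have the lower median of the dynein arm genes. The regulators' median difference was 0.05 (0.11 against WT replicate 1 and 0.10 against WT replicate 2, but −0.01 without KO replicate 1). Both KO arrays lay below both WT arrays in 0 of 5, where 31.8% of all genes had this order, and 5 genes are a small list. *Foxj1*, whose product turns on the axonemal genes with the RFX factors, had log2 values of 9.35 and 9.48 in WT and of 9.53 and 9.40 in KO. Its groups overlapped, with a difference of 0.05 (95% interval −0.27 to 0.37, adjusted p = 0.876 from limma), so a loss of more than 0.27 lies outside the interval. *Mcidas*, which encodes the coactivator that starts multiciliation, had values of 9.14 and 9.18 in WT and of 9.75 and 9.64 in KO. Both KO arrays were above both WT arrays, and each pair was close, with a difference of 0.53 (SE 0.13, adjusted p = 0.142 from limma). It was about as large against WT replicate 1 (0.56) as against WT replicate 2 (0.51). *Ccno*, a cyclin needed for the amplification of centrioles, had 8.43 and 9.17 in WT and 9.40 and 9.15 in KO. Here WT replicate 1 alone was low and the groups overlapped, so that the difference of 0.47 shrank to 0.10 against WT replicate 2. *Rfx2* and *Rfx3*, factors that bind the X-box of ciliary promoters, had differences of −0.01 (SE 0.13) and −0.08 (SE 0.19), and both had overlapping groups.

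The stretches that these factors are known to bind were looked for in the 250 bases before the start of each gene, on both strands, in RefSeq promoters of the assembly GRCm38.p6. A promoter was matched for 33 of the 38 genes. The X-box of the RFX factors, a pair of inverted sites spaced by 0 to 3 bases, was found in 4 of the 33 (12.1%) and in 2.04% of 27025 genes. The forkhead core GTAAACA was found in 2 (6.06%) and in 3.54% of those genes. Because the X-box pattern accepts only certain letters in each site, a plainer pair, GTTGCNNNGCAAC or GTTGCNNNNGCAAC, was added after the promoters were seen. It was found in 5 of the 33 (15.2%) and in 0.389% of those genes, among them 3 of the 4 with the X-box (*Hydin*, *Dynlrb2* and *Cfap44*) and also *Dnah6* and *Tekt4*. A match describes the letters of the window only. No binding was measured, and since the plainer pair was added after the promoters were seen, its share among them is no test. The matches are shown for their letters, and they were chosen after the values were seen. Each is printed 5′ to 3′ on the gene's strand with the match in capitals, and the distance counts from the match to the start site. They lie in *Hydin* (chr8:110266936-110266976, plus strand, 7 bases), *Dynlrb2* (chr8:116504944-116504996, plus strand, 38 bases), *Ccno* (chr13:112987563-112987616, plus strand, 205 bases), *Cfap44* (chr16:44394752-44394798, plus strand, 13 bases), *Tekt4* (chr17:25471534-25471586, plus strand, 23 bases), *Ak7* (chr12:105705831-105705877, plus strand, 124 bases) and *Cfap43* (chr19:47837390-47837436, minus strand, 48 bases).
Hydin, X-box: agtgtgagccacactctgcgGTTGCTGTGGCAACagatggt
Dynlrb2, X-box: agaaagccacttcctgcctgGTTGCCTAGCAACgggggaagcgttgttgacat
Ccno, X-box: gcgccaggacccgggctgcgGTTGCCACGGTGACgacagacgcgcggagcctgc
Cfap44, X-box: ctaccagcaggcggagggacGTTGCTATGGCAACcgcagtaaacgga
Tekt4, inverted pair: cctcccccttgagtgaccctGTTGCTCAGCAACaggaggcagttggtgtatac
Ak7, forkhead core: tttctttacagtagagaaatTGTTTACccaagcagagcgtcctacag
Cfap43, forkhead core: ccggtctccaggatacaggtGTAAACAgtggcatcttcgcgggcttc
The genes with an X-box or inverted pair did not share a direction. *Hydin* (−0.72), *Cfap44* (−0.71) and *Dnah6* (−1.02) were lower in both KO arrays, whereas *Dynlrb2* (0.07), *Ccno* (0.47) and *Tekt4* (−0.16) had overlapping groups. Those with the forkhead core, *Ak7* (−0.36) and *Cfap43* (−0.88), were lower in both KO arrays.

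With both WT arrays, the lowest median difference was that of the 4 other ciliated cell genes, which are those not placed in another role. They are *Sec14l3*, *Cdhr3*, *Tmem212* and *Ccdc153*, and their median was nearly the same against either WT array. Against WT replicate 1 alone the dynein arms were lower. In the 4 other ciliated cell genes both KO arrays lay below both WT arrays in 4 of 4, against 31.8% of all genes. Their median difference was −0.81, and it was −0.82 against WT replicate 1 and −0.79 against WT replicate 2. *Sec14l3*, a member of the SEC14-like lipid-binding proteins and abundant in ciliated airway cells, had log2 values of 11.28 and 11.40 in WT and of 10.50 and 10.40 in KO. The pairs did not overlap, and the difference of −0.89 (SE 0.13), or 1.85-fold lower in KO, was the only call among the cilia genes (adjusted p = 0.0499 from limma). It had rank 154 of the 156 genes called over the array, so it passed narrowly. When every probe set of a gene was averaged instead, its adjusted p was 0.0514. Without KO replicate 1 or 2 it was 0.624 or 0.936, with differences of −0.94 and −0.83.

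*Cdhr3*, a cadherin of ciliated cells known as a receptor for rhinovirus C, had 9.33 and 9.44 in WT and 8.68 and 8.34 in KO, a difference of −0.87 (SE 0.16, adjusted p = 0.0809 from limma). *Tmem212*, a membrane protein of ciliated cells, had 8.63 and 8.43 in WT and 7.79 and 7.78 in KO, a difference of −0.75 (SE 0.14, adjusted p = 0.0798). Each of these KO pairs was below its WT pair by more than the gap within either pair. *Ccdc153*, a coiled-coil protein, had 9.50 and 9.45 in WT and 9.00 and 8.89 in KO, with a difference of −0.53 (SE 0.13, adjusted p = 0.144 from limma). These 3 genes did not pass the threshold of 0.05, and *Cdhr3* and *Tmem212* were among the 4 cilia genes with an adjusted p under 0.1.

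The promoter of *Sec14l3* and those of *Dnah6* and *Dnah12*, the inner arm dyneins of the next paragraph, are printed because these genes had the largest differences among cilia genes without overlap between groups. Each is the 250 bases before the start on the gene's strand, in RefSeq's GRCm38.p6, at chr11:4064603-4064852 (plus strand), chr6:73221632-73221881 (minus strand) and chr14:26691304-26691553 (plus strand). *Dnah6* held the inverted pair, in capitals, 23 bases before the start, with letters that the X-box pattern did not accept. None of the searched letters were found in the promoters of *Sec14l3* and *Dnah12*.
Sec14l3: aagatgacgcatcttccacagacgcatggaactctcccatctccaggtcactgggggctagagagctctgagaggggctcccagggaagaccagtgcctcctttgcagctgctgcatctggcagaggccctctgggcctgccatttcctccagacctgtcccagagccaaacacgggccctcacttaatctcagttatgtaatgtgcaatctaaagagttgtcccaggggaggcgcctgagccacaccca
Dnah6: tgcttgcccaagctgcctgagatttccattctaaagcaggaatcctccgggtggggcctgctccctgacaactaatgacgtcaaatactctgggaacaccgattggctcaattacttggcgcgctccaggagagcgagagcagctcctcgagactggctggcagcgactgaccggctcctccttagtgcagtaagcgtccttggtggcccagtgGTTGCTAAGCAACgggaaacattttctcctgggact
Dnah12: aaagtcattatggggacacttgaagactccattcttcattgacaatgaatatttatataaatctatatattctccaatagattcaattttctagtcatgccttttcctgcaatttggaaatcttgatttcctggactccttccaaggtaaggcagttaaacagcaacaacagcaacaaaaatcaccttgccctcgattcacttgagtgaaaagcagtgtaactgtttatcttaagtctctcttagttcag

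The dynein arm genes, which encode the motors of the axoneme, had a median difference of −0.65. Both KO arrays were below both WT arrays in 5 of 7 genes, against 31.8% of all genes. An unadjusted p under 0.05 in limma was reached by 4 of 7, each lower, against 8.58% of all genes. None passed the adjusted threshold. Their size depended on the WT array more than that of any other role: the median was −1.05 against WT replicate 1 and −0.42 against WT replicate 2. *Dnah6*, a heavy chain of the inner arms, had log2 values of 9.01 and 8.62 in WT and of 8.02 and 7.57 in KO. Both KO arrays were clearly low, with a difference of −1.02 (SE 0.21, adjusted p = 0.0957 from limma) that was still −0.83 against WT replicate 2. *Dnah12*, another inner arm heavy chain, had 9.50 and 8.26 in WT and 8.00 and 7.65 in KO. Its difference of −1.05 (SE 0.38, adjusted p = 0.289 from limma) was the largest in size among the cilia genes, but WT replicate 1 stood 1.24 above WT replicate 2, and the difference against the latter was −0.43.

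The outer arm heavy chains make up the outer row of motors, and *Dnah9* and *Dnah5* had both KO arrays below both WT arrays, while *Dnah11* did not. *Dnah9* had 8.77 and 8.02 in WT and 7.72 and 7.48 in KO (difference −0.79, and −0.42 against WT replicate 2). *Dnah5* had 8.55 and 7.75 in WT and 7.62 and 7.37 in KO (difference −0.65, and −0.25 against WT replicate 2). In these, WT replicate 1 was high and the remaining arrays lay close together, with KO below. *Dnah11* had 8.73 and 7.85 in WT and 7.90 and 7.74 in KO, so that WT replicate 2 lay between the KO arrays and the difference of −0.48 was −0.04 without WT replicate 1. *Dnali1*, a light chain of the inner arms, went the other way between WT arrays, with 9.50 and 9.95, and had 9.49 and 9.22 in KO (difference −0.37, SE 0.19). *Dynlrb2*, a roadblock-type dynein light chain, had overlapping groups, with 8.78 and 9.22 in WT and 9.11 and 9.04 in KO.

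The 2 genes for the assembly of dynein arms in the cytoplasm had a median difference of 0.10, which was 0.31 against WT replicate 1 and −0.11 against WT replicate 2. *Zmynd10* had log2 values of 8.53 and 9.09 in WT and of 9.17 and 8.90 in KO (difference 0.23, SE 0.21), and *Dnaaf1* had 8.05 and 8.31 in WT and 8.16 and 8.15 in KO (difference −0.03, SE 0.14). Both had overlapping groups.

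Genes of the radial spokes and the central pair, which set the pattern of the beat, had a median difference of −0.30. Both KO arrays were below both WT arrays in 5 of 7, against 31.8% of all genes. The median was −0.26 against WT replicate 1 and −0.31 against WT replicate 2. Of the radial spoke head genes, *Rsph1* (−0.15) and *Rsph9* (0.01) had overlapping groups, while *Rsph4a* had 9.37 and 9.68 in WT and 9.31 and 9.14 in KO (difference −0.30, SE 0.16). *Spef2*, of the central pair, had 8.87 and 8.51 in WT and 8.11 and 7.79 in KO. Its KO arrays were both below WT, with a difference of −0.74 (SE 0.18, adjusted p = 0.149 from limma), and −0.56 against WT replicate 2. *Hydin*, whose loss stills the central pair, had 9.06 and 8.23 in WT and 8.00 and 7.85 in KO, with a difference of −0.72 (SE 0.27) that was −0.31 against WT replicate 2. *Ak7*, an adenylate kinase of the axoneme, had 9.26 and 9.45 in WT and 9.08 and 8.92 in KO (difference −0.36, SE 0.14). *Spag17*, a further central pair gene, had 8.35 and 8.15 in WT and 8.15 and 7.95 in KO, so that its WT replicate 2 and KO replicate 1 lay almost at the same value.

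The nexin link, ruler and tether genes encode proteins that link the doublets, set the spacing of arms and spokes, or tether an inner arm dynein. Their median difference was −0.30 (−0.29 against WT replicate 1 and −0.32 against WT replicate 2). Both KO arrays were below both WT arrays in 3 of 6, against 31.8% of all genes. *Ccdc39* and *Ccdc40*, whose products form the molecular ruler together, did not have the same pattern. *Ccdc39* had 9.32 and 8.99 in WT and 8.85 and 8.53 in KO, without overlap (difference −0.47, SE 0.18). *Ccdc40* had 8.24 and 8.64 in WT and 8.35 and 8.24 in KO, where WT replicate 1 was level with KO (difference −0.14, SE 0.17). The difference between this pair of genes was not tested. *Cfap43* and *Cfap44*, which tether an inner arm dynein to the doublet, were alike. *Cfap43* had 8.79 and 7.95 in WT and 7.39 and 7.60 in KO (difference −0.88, and −0.45 against WT replicate 2), and it was the only cilia gene with KO replicate 1 below KO replicate 2. *Cfap44* had 9.15 and 8.45 in WT and 8.16 and 8.01 in KO (difference −0.71, and −0.36 against WT replicate 2). *Ccdc65* (0.11) and *Drc1* (−0.01), of the nexin-dynein regulatory complex, had overlapping groups.

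Genes of the axonemal microtubules and of proteins on or in them were nearest to no difference among the structural roles, with a median of −0.12 (−0.03 against WT replicate 1 and −0.21 against WT replicate 2). The tektins, filaments of the doublet wall, had overlapping groups, with *Tekt1* at −0.05 (SE 0.14) and *Tekt4* at −0.16 (SE 0.14). *Tppp3*, a tubulin-binding protein abundant in ciliated cells, had 10.92 and 11.29 in WT and 11.03 and 10.74 in KO, with overlap (difference −0.22, SE 0.18). *Cfap126*, which acts in the positioning of basal bodies, had 8.41 and 8.56 in WT and 8.41 and 7.94 in KO, where only KO replicate 2 was clearly low. *Ccdc113* (−0.12, SE 0.12) was the remaining gene with both KO arrays below WT, and *Cfap52*, a protein inside the doublets, had overlapping groups (0.12, SE 0.23). *Tubb4a*, a beta-tubulin of axonemes that neurons and glia also express, had 7.97 and 8.76 in WT and 8.98 and 8.84 in KO. Both KO arrays were above WT, but its difference of 0.55 (SE 0.25, adjusted p = 0.388 from limma) was 0.15 against WT replicate 2.

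**Figure D2:**
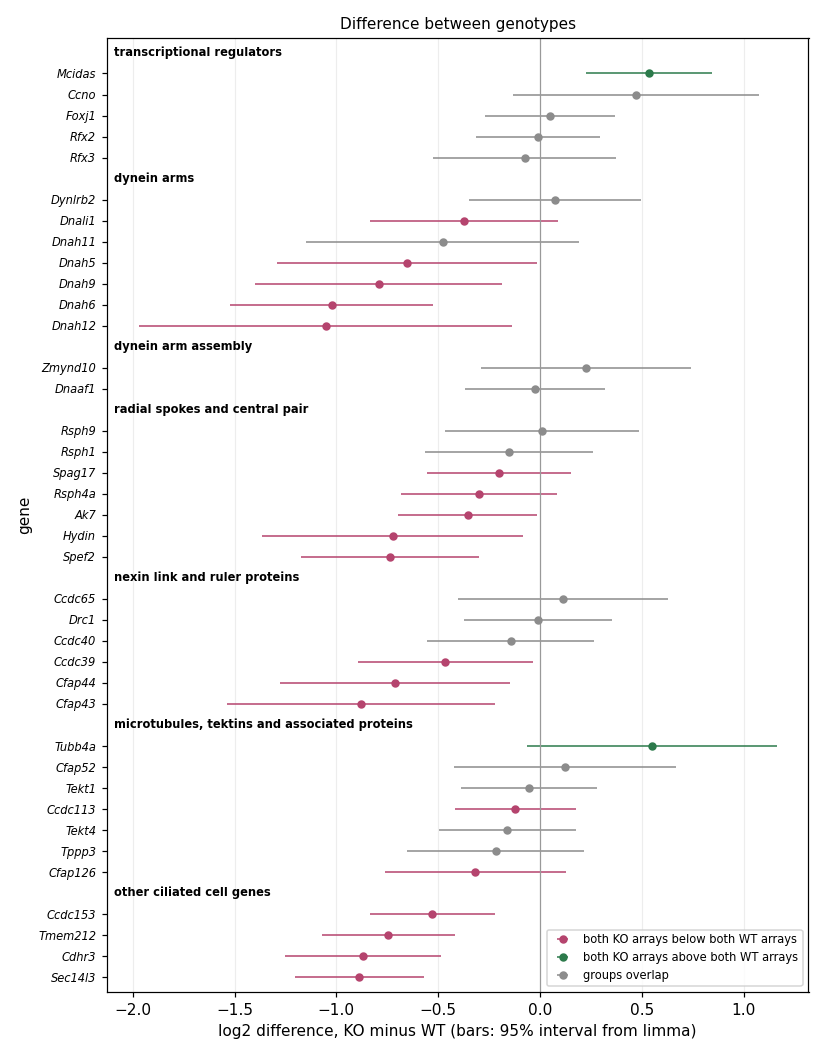
Log2 difference, KO minus WT, of the 38 motile cilia genes by role, with 95% intervals from limma (2 arrays per group). Red marks genes with both KO arrays below both WT arrays, green both above, grey overlap. The other ciliated cell genes lie between −0.89 and −0.53, and the intervals of the dynein heavy chains are wide.

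The gap between the WT arrays followed the length of the gene. Gene length, from start to end in the RefSeq table, ran from 2.98 kb (*Ccno*) to 343 kb (*Hydin*) among the cilia genes. Across the 38 genes the log2 difference WT replicate 1 minus WT replicate 2 had a Pearson's *r* of 0.78 with the log10 length (Spearman's rho 0.73). These are correlations across genes measured on the same arrays, given as a description. Over 19856 genes of all kinds the same *r* was −0.11, and over the 181 other cilia genes it was 0.35. All 10 cilia genes of at least 100 kb (*Hydin*, *Dnah9*, *Dnah11*, *Dnah5*, *Spag17*, *Rfx3*, *Dnah6*, *Dnah12*, *Spef2* and *Cfap43*) were higher in WT replicate 1 than in WT replicate 2, by a median of 0.78, against 5 of the 28 shorter ones. Among all genes 1219 of 2294 long and 7019 of 17562 shorter ones were higher in WT replicate 1.

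In the comparison of genotypes the difference KO minus WT had an *r* of −0.60 with the log10 length of the cilia genes. Against WT replicate 2 alone that *r* was −0.20. The KO mean was then below WT replicate 2 in 9 of the 10 long genes (median −0.36) and in 25 of the 28 shorter ones (median −0.23). Of the 4 other ciliated cell genes, none was over 100 kb (*Sec14l3* 14.1 kb, *Cdhr3* 59.1 kb, *Tmem212* 30.3 kb, *Ccdc153* 6.63 kb), and their gaps between WT arrays were −0.12, −0.12, 0.20 and 0.04.

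**Figure D3:**
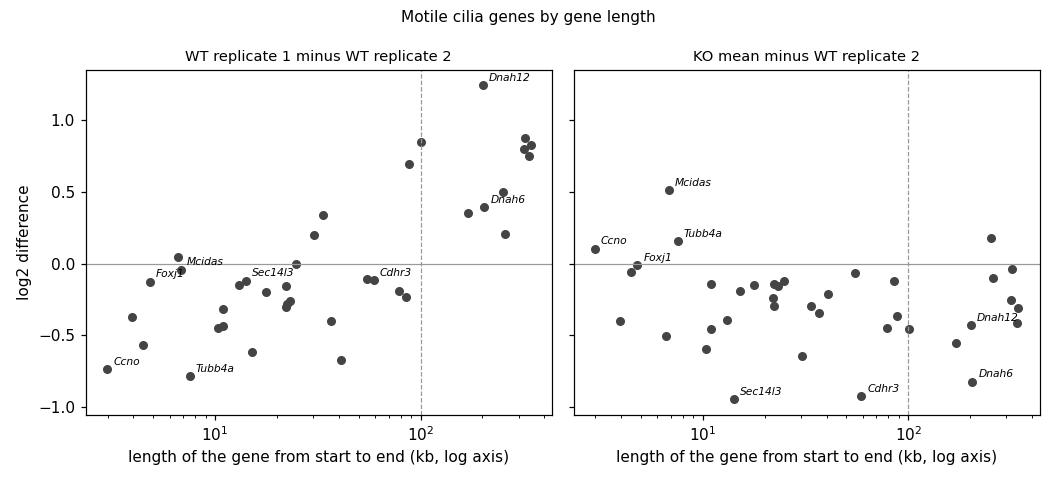
Log2 differences of the 38 motile cilia genes by gene length in kb (log axis), for WT replicate 1 minus WT replicate 2 on the left and the KO mean minus WT replicate 2 on the right. Each point is 1 gene and the dashed line marks 100 kb. All 10 genes at or beyond the line are above 0 on the left, and on the right long and short genes alike are mostly below 0.

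Several probe sets were available for 4 of the cilia genes, and in each all were lower in KO by their means. This was so for 5 of 5 probe sets of *Cfap43* (median difference −0.88), 2 of 2 of *Dnah12* (median −1.04), 3 of 3 of *Dnah6* (median −1.02) and 22 of 22 of *Spef2* (median −0.76, from −1.05 to −0.28). Probe sets of 1 gene share their samples, so they say nothing more about the spread between lungs.

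The other genes of cilia, 181 from lists written by hand, had a median difference of −0.07 (0.03 against WT replicate 1 and −0.12 against WT replicate 2). Both KO arrays were below both WT arrays in 57 (31.5%), close to the 31.8% of all genes. The 4 lists in this pool differed. The order was that of 41.5% of the further axoneme and ciliated cell genes and 44.1% of the other dynein genes. It was that of 8.70% of the regulator and centriole genes and 14.3% of the intraflagellar transport and BBSome genes. In limma 0 of the 181 were called. An unadjusted p under 0.05 was reached by 19 (10.5%) that were lower, near the 8.58% of all genes, and by 6 (3.31%) that were higher, against 5.88%. Lower genes at that p made up 18.3% of the axoneme list and 11.8% of the dynein list. Higher ones were 5 of the regulator and centriole list (21.7%) and 1 of the axoneme list (1.22%). The further genes of axoneme structure and ciliated cells had a median of −0.16, with lower means in 66 of 82, where 11732 of all 19938 genes had lower means. The median depended on single arrays: it was −0.06 against WT replicate 1 and −0.26 against WT replicate 2. With KO replicate 1 left out it was −0.25, and with KO replicate 2 left out −0.06. In this list *Cfap69*, of the central pair, had 9.05 and 8.42 in WT and 7.99 and 7.73 in KO (difference −0.87). *Spata17* had 6.92 and 6.69 in WT and 6.33 and 6.15 in KO (difference −0.57). *Mns1*, an axonemal protein first known from meiosis, was opposite, with 7.59 and 7.87 in WT and 8.50 and 8.37 in KO (difference 0.71). None of these 3 had overlapping groups. The 34 other genes of dynein arms and their assembly had a median of −0.11, with lower means in 22 (−0.07 and −0.11 against WT replicates 1 and 2, and −0.17 and −0.02 with KO replicate 1 or 2 left out). *Tctex1d4*, a dynein light chain, had a difference of −0.46 with WT arrays at the same value (7.86 and 7.86, against 7.46 and 7.35 in KO), *Nme9* one of −0.42, and *Dnah3*, a heavy chain of 174 kb, one of −0.57 that was −0.22 against WT replicate 2.

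The genes of multiciliation regulators and centriole amplification lay on the other side, with a median difference of 0.16 and higher means in 20 of 23. It was 0.22 against WT replicate 1 and 0.09 against WT replicate 2, and 0.08 and 0.24 without KO replicate 1 and 2. Both KO arrays lay above both WT arrays in 10 of the 23 genes (43.5%), against 17.6% of all genes. The genes of this list with the smallest p were *Stil* (0.96, adjusted p = 0.0825 from limma), *Plk4* (0.71) and *Gmnn* (0.47). *Stil* had 8.55 and 8.99 in WT and 9.79 and 9.67 in KO, without overlap. *Stil* and *Plk4* also duplicate centrioles in dividing cells and *Gmnn* is the geminin of DNA replication. Their higher values stood beside those of the dividing cell markers given below, whose part was not tested. Genes of intraflagellar transport and the BBSome, which all cilia need, had a median of 0.08, with lower means in 16 of 42. This direction was not stable: the median was 0.20 against WT replicate 1, −0.02 against WT replicate 2 (22 lower) and 0.0016 without KO replicate 1 (21 lower). The smallest p were those of *Ift74* (0.29), *Wdr35* (0.36) and *Ift27* (0.39).

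Markers of other cells of the lung also differed between the groups, and their part in the cilia gene values was not tested. Club cells are the secretory neighbours of ciliated cells in the airway, and 8 of their 12 markers had lower means in KO, near the share of all genes (11732 of 19938). Their median was −0.20, with −0.37 against WT replicate 1 and −0.15 against WT replicate 2. Limma called 3 of the 12 lower, *Scgb1a1* (12.57 and 12.82 in WT, 10.09 and 9.92 in KO, difference −2.69, adjusted p = 0.00283), *Hp* (−1.19) and *Gabrp* (−1.15). Of all genes 0.702% were called lower. Other club cell markers went the other way, with a highest difference of 0.73. Both KO arrays were below both WT arrays in 7 markers and above in 2, and an unadjusted p under 0.05 was reached by 5 lower and 1 higher. The shares of all genes were 31.8% below, 17.6% above, 8.58% lower and 5.88% higher. The mean log2 value of the club cell markers was 9.70 and 9.68 in WT and 9.32 and 9.16 in KO. For the 38 motile cilia genes it was 8.84 and 8.82 in WT and 8.63 and 8.45 in KO, so the means of both lists were lower in both KO arrays. By the cilia genes' median after subtracting each gene's average, WT replicate 1 (0.03) and KO replicate 1 (−0.02) were close. WT replicate 2 was at 0.14 and KO replicate 2 at −0.23. Only 19 of the 38 had both KO arrays below both WT arrays. The mean over all genes was also lowest in KO replicate 2 (8.08). Alveolar markers were lower by more than the club cell and cilia lists. Of 12 type II markers 11 had lower means and 5 were called lower (median −0.70, −0.71 and −0.76 against WT replicates 1 and 2, with mean log2 values of 12.68 and 12.62 in WT and of 11.71 and 11.71 in KO), and of 12 type I markers 11 had lower means and 2 were called lower (median −0.56, −0.54 and −0.58 against WT replicates 1 and 2, with 12.12 and 12.12 in WT, 11.37 and 11.31 in KO).

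Pan-epithelial markers had a median of 0.04 (0.18 against WT replicate 1 and −0.06 against WT replicate 2), with mean log2 values of 10.71 and 10.99 in WT and of 11.02 and 10.95 in KO, so that WT replicate 1 alone was low. *Epcam* (0.69), *Esrp1* (0.66) and *Krt7* (−0.37) had the smallest p in that list, and limma called 0 of 12. An unadjusted p under 0.05 was reached by 3 that were higher and 1 that was lower, against 5.88% and 8.58% of all genes. Basal cell markers had a median of 0.12 (0.16 and 0.12 against WT replicates 1 and 2, and 0.07 without KO replicate 1). Neuroendocrine markers had one of 0.0074 (0.07 and 0.04 against WT replicates 1 and 2, and −0.01 and 0.08 without KO replicate 1 and 2). Markers of neurons and glia had one of 0.20 (0.23 and 0.19 against WT replicates 1 and 2, and 0.07 and 0.34 without KO replicate 1 and 2). Limma called 0 in each of these lists, and an unadjusted p under 0.05 was reached by 0, 1 (*Uchl1*, 1.49) and 3 genes, each higher, against 5.88% of all genes. Dividing cell markers were above WT in both KO arrays in 15 of 15, an order that 17.6% of all genes had. Their median was 0.99 (1.36 and 0.61 against WT replicates 1 and 2), with mean log2 values of 9.91 and 10.65 in WT and of 11.30 and 11.20 in KO. Limma called 0 of them, with an unadjusted p under 0.05 in 15, against 5.88% of all genes that were higher. The smallest adjusted p was 0.0511 (*Cenpf*, from limma), and WT replicate 1 was again the extreme array. No marker can be called absent, since the values carry no detection call.

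**Figure D4:**
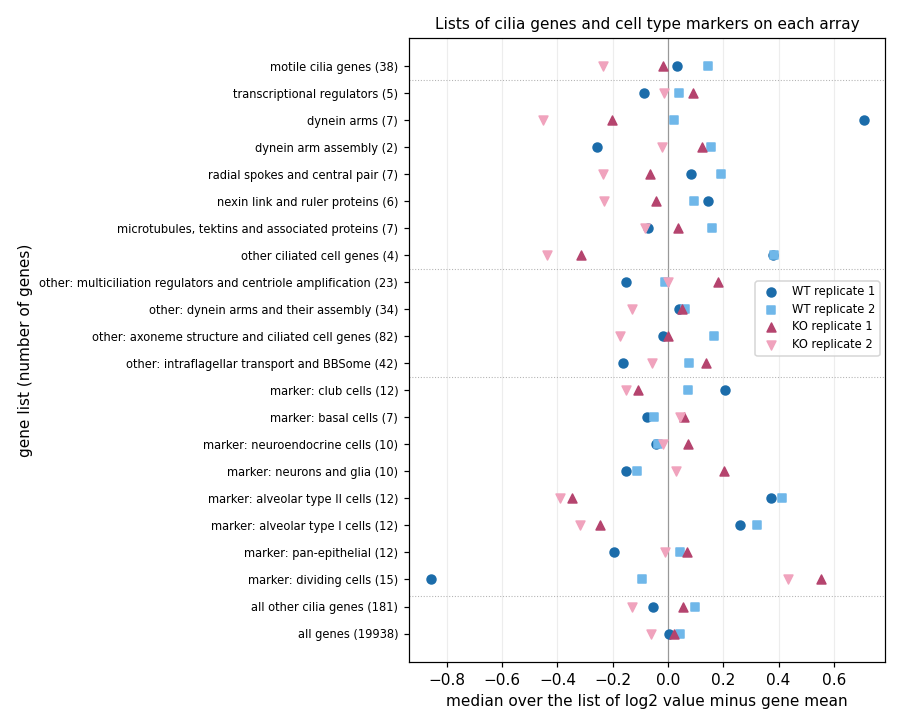
Median of each gene list on each array, in log2 units after subtracting every gene's average over the 4 arrays, with the number of genes in brackets. Blue symbols are WT and red symbols KO. The other ciliated cell genes and the alveolar markers separate the genotypes with close pairs. The WT and KO medians of dynein arms and dividing cells also lie apart, but there WT replicate 1 is the farthest out. It lies to the right for dynein arms and to the left for dividing cells.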

How the data were processed

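The deposited values are log2 signals of 30177 probe sets. Per the submitters' processing notes the authors used RMA, which corrects background, quantile-normalizes arrays and summarises probes, and Affymetrix Expression Console, with no version named. The platform's annotation gave 1 symbol for 21789 probe sets, several for 1621 and none for 6767. Each of 19938 genes was represented by its brightest probe set with a single symbol, and 1 probe set that shares a cilia gene with other symbols was left out. No further normalization or filter was applied. Genotypes were compared in R 4.3.3 by limma 3.58.1 (lmFit, then eBayes, with 2 residual and 4.42 prior degrees of freedom). P values were adjusted by Benjamini-Hochberg over all genes, at a threshold of 0.05. They measure the spread between these 4 arrays, whose number limits the precision. The code was tested on simulated data.

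Cilia genes and lists were chosen with earlier results of these data known. Every cilia gene could be named, and of each other list the called genes or the 3 with the smallest p. Alternatives were a block for the replicate number, median centring, cyclic loess, a filter on the dimmest 40 percent, averaging a gene's probe sets, eBayes with trend and robust, a threshold of 0.1 and leaving out each array. The length limit of 100 kb and the promoter windows with a match were chosen after the data were seen. Gene lengths came from RefSeq (GRCm38.p6), matched by Entrez ID for 19856 genes. Plots used matplotlib 3.10.9 (Python 3.11.15).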

Additional observations from a re-analysis of the deposited data

How the results depend on the processing

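Replicate numbers did not pair the arrays, since the deviations of same-numbered arrays correlated at −0.24. With the replicate number as a block limma called 602 genes, against 156, and 4 cilia genes lower (*Sec14l3*, *Cdhr3*, *Dnah6* and *Dnah12*). A crossed pairing, added after seeing the data, gave 512 genes and 3 cilia genes. Median centring gave 294 and 2, and cyclic loess 350 and 2. The fit without the dimmest 40 percent of genes gave 301 and 3, and a threshold of 0.1 gave 457 and 4. After median centring 23 cilia genes were lower in both KO arrays, against 26.2% of all genes, and 4 were higher, against 23.8%. After cyclic loess 24 were lower, against 25.2%, and 3 were higher, against 26.3%. The mean of all probe sets gave 147 genes and 0 cilia genes, with 14 cilia genes lower at an unadjusted p under 0.05, the same number as in the main fit. The fit with trend and robust gave 196 genes, with *Sec14l3* alone among the cilia genes.

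Leaving out each array gave 0 to 6292 genes called and 0 to 20 cilia genes called, 19 to 30 lower and 2 to 11 higher in both KO arrays. A lone array makes this order commoner in all genes too. All KO arrays were below all WT arrays for 30 cilia genes against 48.1% of all genes without WT replicate 1, 21 against 46.1% without WT replicate 2, 26 against 49.2% without KO replicate 1 and 19 against 36.7% without KO replicate 2. The contrast with all genes was narrowest without WT replicate 2. All KO arrays were above all WT arrays for 3 cilia genes against 24% of all genes without WT replicate 1, and for 11 against 39.3% without WT replicate 2. It was 2 against 19.9% without KO replicate 1 and 6 against 35.2% without KO replicate 2. The highest counts came without a WT array and the calls were lost without a KO array. The median difference ran from −0.34 to −0.10 for all cilia genes, −1.05 to −0.42 for dynein arms, −0.41 to −0.20 for nexin link and ruler genes (−0.47 without the dimmest 40 percent of genes) and −0.85 to −0.72 for the other ciliated cell genes. The cause of these shifts was not tested.

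Of the cilia genes 25 kept their sign in each setting run, 22 negative and 3 positive (*Mcidas*, *Ccno* and *Tubb4a*), and 13 changed it. Under cyclic loess *Foxj1* turned to −0.0073, *Rsph9* to −0.0040 and *Drc1* to 0.0642. Without WT replicate 1, *Foxj1* was −0.01 (range over arrays left out −0.0146, without KO replicate 1, to 0.11), *Rfx3* 0.18 (lowest −0.33), *Dynlrb2* −0.14 (highest 0.29), *Zmynd10* −0.0573 (highest 0.51), *Ccdc65* −0.19 (highest 0.42) and *Cfap52* −0.21 (highest 0.46). *Rsph9* was −0.14 without WT replicate 1 and ran from −0.22 without KO replicate 1 to 0.24. Without WT replicate 2, *Rfx2* was 0.0454 (lowest −0.0648), *Dnaaf1* 0.10 (lowest −0.16), *Ccdc40* 0.0571 (lowest −0.35), *Drc1* 0.11 (lowest −0.13) and *Tekt1* 0.0453 (lowest −0.15). Without KO replicate 2, *Rsph1* was 0.0071 (lowest −0.31), *Drc1* 0.09 and *Tekt1* 0.0009. The median of neuron and glia markers was −0.0202 without the dimmest 40 percent of genes. With 2 arrays a group and no detection call, weak signals cannot be told from background.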
